A study of Saccharomyces cerevisiae with 8 samples.

Results

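The THI genes of budding yeast considered here serve thiamine (vitamin B1) synthesis and uptake. They are THI2, THI3, THI4, THI6, THI7, THI20, THI21 and THI22. They were taken by name, with earlier results of these data known. Each had a single probe set annotated to that gene alone, so the set holds 8 genes of the 5656 with a probe set of their own. The series asked how transcript levels respond to loss of heme and to loss of oxygen. It holds 8 arrays in 4 groups of 2. Both hem1 groups came from the hem1 delta strain, which cannot make heme unless it is fed ALA (aminolevulinic acid, the heme precursor that the missing enzyme would make). They were precultured for 6 h in YPD, a rich medium, with 250 µM ALA, washed, and then grown for 16 h in 15 ml of YPD with ALA or without it. Both wild type groups came from the BY45742 strain, precultured for 6 h in YPD and then grown for 12 h in 15 ml of YPD in air (normoxia) or in an anaerobic chamber (hypoxia). The hem1 cultures were inoculated in duplicate. For the wild type samples separate cultures are not stated, so their spread may be technical. The fit used below shares its estimate of the spread over all 8 arrays. This limit therefore reaches the p-values of every comparison, heme depletion included.

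Yeast makes thiamine by building a thiazole and a pyrimidine in separate branches and joining them, after which the vitamin is converted to thiamin diphosphate, the cofactor of pyruvate decarboxylase, transketolase and the 2-oxoacid dehydrogenases. Thi4 makes the thiazole, using sulfur taken from one of its own cysteines and ferrous iron. The pyrimidine is made from vitamin B6 and histidine by the enzymes of the THI5 family and is phosphorylated by Thi20 and Thi21. Thi6 joins the 2 parts, and Thi7 imports thiamine from the medium. The genes are known to be switched on when thiamine runs short and repressed when it is plentiful, through the regulators Thi2, Thi3 and Pdc2. All of the signals below are MAS5 values on the scale deposited by the authors. A level is a signal on that scale, and a difference is between mean log2 signals of groups, given with its standard error (SE) from a limma fit to all 8 arrays. A difference was called when its two-sided p, adjusted by the Benjamini-Hochberg method over 7081 probe sets, was 0.05 or below.

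The array medians ran from 98.1 to 158.8, and their log2 values were 0.40 higher without ALA than with it and 0.49 higher in hypoxia than in normoxia. For the calls described below, the value with each array centred on its median is given where centring changes the call. The labels were checked against known genes. In normoxia the anaerobic gene DAN1 read 11.5 and 32.7, and in hypoxia its signals were 7492 and 8260. ANB1, another anaerobic gene, went from 518 and 629 to 12336 and 14677. The hem1 cultures with ALA, labelled heme replete, read 1357 and 2638 for DAN1 and 7713 and 8217 for ANB1. CYC1, an aerobic gene for cytochrome c, read 18.3 and 32.1 there, below the 30th percentile of each array, against 660.4 and 809.6 in normoxia. In these genes the cultures with ALA were thus unlike normoxia. Whether they were replete in heme was not tested. Heme depletion below therefore names only the comparison of hem1 without and with ALA. The HEM1 probe set read 459.7 and 608 with ALA and 849 and 696 without it, and it is not known here to lie in the deleted part. The control probe set for 18S ribosomal RNA read 3507 on replicate 1 without ALA and 10736 on replicate 2 of hypoxia, against at most 355 on the other arrays.

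Without ALA all 8 THI genes were higher than with ALA, and in hypoxia 7 of 8 were higher than in normoxia. THI4 moved most in both, by 14.6-fold and 10.5-fold. The transporter gene THI7 had the smallest difference in both and did not pass in hypoxia. In these bulk samples more cells with a transcript and more of it per cell cannot be told apart. These counts stand beside a wide response, since 30.2% of all probe sets tested rose without ALA and 33.3% rose in hypoxia, while 49.9% and 55.8% changed in either direction. With each array centred on its median, 19.8% rose and 34% fell without ALA, and 20% rose and 37% fell in hypoxia, against 19.7% and 22.5% falling on the deposited scale. The median log2 difference of the 8 genes was 1.81 without ALA against 0.14 over all probe sets tested, and 1.39 in hypoxia against 0.21. Because the genes were chosen with earlier results of these data known, these counts and medians describe the set and do not test it. All 8 genes had signals above the 30th percentile on every array, so none was admitted to the tests by 1 group alone.

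**Figure D1:**
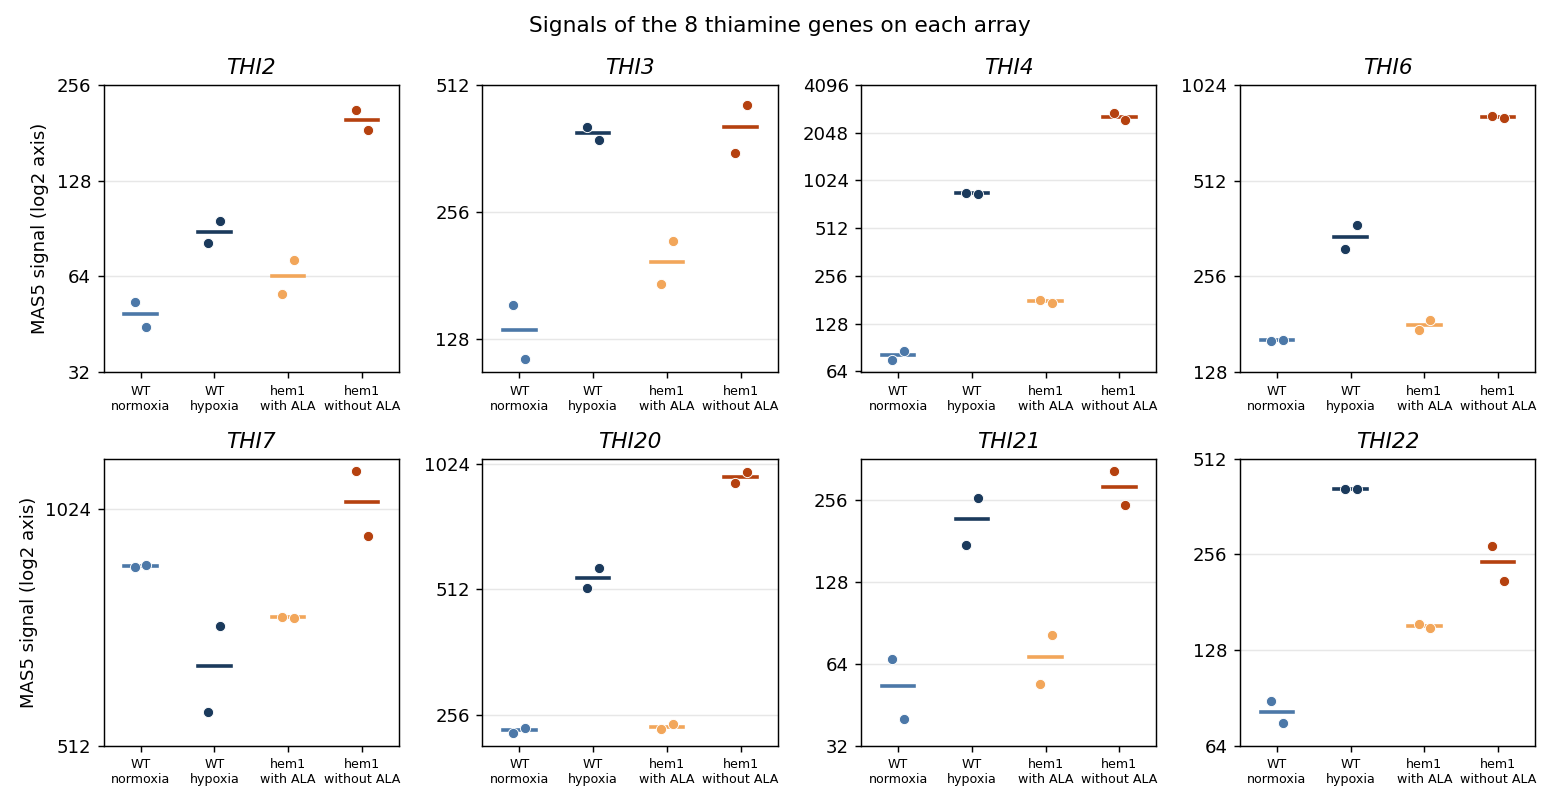
MAS5 signal (log2 axis, a separate range for each gene) of the 8 thiamine genes on each array, by group. Points are single arrays and bars are group means. THI4 reads 2455 and 2723 without ALA and at most 181 in both control groups, whereas THI7 stays between 566 and 1146 on all arrays.

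THI4 (YGR144W), the thiazole synthase gene, read 75.8 and 85.9 in normoxia against 849.8 and 847 under hypoxia. Its hem1 signals were 181 and 173 with ALA against 2723 and 2455 without ALA. The groups did not overlap, and the cultures without ALA stood above all others. The log2 difference was 3.87 (SE 0.16, adjusted p = 1.7e-06) for heme depletion and 3.39 (SE 0.16, adjusted p = 1.4e-06) for hypoxia. Both calls held in every one of 17 other settings, with log2 differences from 3.47 to 3.94 and from 2.90 to 3.51. Among the 5284 genes tested THI4 ranked 45th from the top in heme depletion and 105th in hypoxia. Its level also differed between the control cultures, being 2.19-fold higher in ALA-fed hem1 cells than in wild type normoxia (adjusted p = 0.00197), where 21.7% of probe sets were called. Between the treated cultures it was 3.05-fold higher without ALA than in hypoxia (adjusted p = 0.000662), where 15% were called. Both of these comparisons set different strains and culture times beside each other. Strain, time and ALA cannot be told apart in the first, nor strain, time and treatment in the second.

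THI20, THI21 and THI22 encode related proteins of the pyrimidine branch. Thi20 and Thi21 are kinases that add phosphates to the pyrimidine, and Thi20 also carries a thiaminase-like domain. Thi22 resembles them but is not known to supply kinase activity. THI20 (YOL055C) read 233 and 239 in normoxia against 517 and 576 under hypoxia. The hem1 arrays gave 238 and 243 with ALA against 919 and 979 without ALA. Its control groups overlapped, and its treated groups stood apart from them and from each other. The rise was 3.94-fold without ALA (adjusted p = 3.1e-05) and 2.32-fold in hypoxia (adjusted p = 0.000283).

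THI21 (YPL258C) read 66.4 and 40.1 in normoxia against 174 and 259 under hypoxia. In the hem1 strain the signals were 53.7 and 81.6 with ALA against 326 and 245 without ALA. Here both control groups overlapped each other and both treated groups overlapped each other. The rise was 4.27-fold without ALA (adjusted p = 0.00136) and 4.12-fold in hypoxia (adjusted p = 0.00116), with the widest SE of the 8 genes, 0.34 on the log2 scale.

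THI22 (YPR121W) read 88.4 and 75.3 in normoxia against 411.5 and 410.1 under hypoxia. Its hem1 signals were 154.5 and 150.3 with ALA against 273 and 211 without ALA. Unlike its relatives it was highest in hypoxia, and no groups overlapped. It rose 5.04-fold in hypoxia (adjusted p = 3.0e-05) and 1.58-fold without ALA (adjusted p = 0.0203). The rise without ALA lost its call with median centring (log2 difference 0.25, adjusted p = 0.308), quantile normalization (0.27, adjusted p = 0.298) and spike scaling (0.40, adjusted p = 0.219). It was also lost without replicate 1 of the cultures without ALA, the array with high 18S signal (adjusted p = 0.120), and without either array with ALA (0.0677 and 0.0794). In the control cultures THI22 was 1.87-fold higher with ALA than in normoxia (adjusted p = 0.0127), a call lost with quantile normalization (0.0541), without replicate 2 of normoxia (0.0547) and without either array with ALA (0.0609 and 0.0601).

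THI6 (YPL214C) encodes the enzyme that joins thiazole and pyrimidine, and that also phosphorylates salvaged thiazole. It read 161 and 162 in normoxia against 311 and 371 under hypoxia. The hem1 arrays gave 174 and 187 with ALA against 815 and 809 without ALA. The treated groups stood above both controls, and the cultures without ALA above hypoxia. The rise was 4.51-fold without ALA (adjusted p = 2.8e-05) and 2.11-fold in hypoxia (adjusted p = 0.00077). The difference between its control cultures did not pass (log2 difference 0.16, SE 0.16, adjusted p = 0.514).

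Both regulator genes of the set were called in both treatments. THI2 (YBR240C), for a zinc-cluster activator, read 53.2 and 44.4 in normoxia against 81.4 and 95.4 under hypoxia. In the hem1 strain the signals were 56.2 and 72.2 with ALA against 213 and 184 without ALA. It rose 3.11-fold without ALA (adjusted p = 0.000696), a call that held in all 17 other settings, and stood there above every other array. Its 1.81-fold rise in hypoxia (adjusted p = 0.0126) was lost with median centring (log2 difference 0.37, adjusted p = 0.195) and quantile normalization (0.31, adjusted p = 0.280). It was lost too without replicate 2 of normoxia (adjusted p = 0.0589) and without replicate 2 of hypoxia, the array with high 18S signal (0.0797).

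THI3 (YDL080C) encodes a relative of pyruvate decarboxylase that binds thiamin diphosphate and acts as the sensor of the vitamin. It read 154 and 115 in normoxia against 406 and 380.0 under hypoxia. Its hem1 signals were 173 and 218 with ALA against 353 and 459.6 without ALA. The treated groups overlapped, and both lay above the controls. It rose 2.07-fold without ALA (adjusted p = 0.00508) and 2.95-fold in hypoxia (adjusted p = 0.000561). Both calls held in all 17 other settings, although the rise without ALA was then as small as 0.65 on the log2 scale (adjusted p = 0.0423 with median centring).

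THI7 (YLR237W), the gene for the main plasma membrane thiamine transporter, did not share the pattern of the others. It read 865 and 869.9 in normoxia against 566 and 728 under hypoxia. The hem1 arrays gave 747 and 745 with ALA against 1146 and 947 without ALA. Its lowest group was hypoxia and its highest the cultures without ALA, and no groups overlapped. Without ALA it was 1.40-fold higher (log2 difference 0.48, SE 0.18, adjusted p = 0.0497). That call ended in 12 of 17 other settings, among them median centring (0.08, adjusted p = 0.707), quantile normalization (adjusted p = 0.0721) and spike scaling (adjusted p = 0.440). In hypoxia the log2 difference was -0.43 (SE 0.18, adjusted p = 0.0651), which did not pass as deposited. It became a called fall after median centring (-0.92, adjusted p = 0.00211), with quantile normalization (-0.54, adjusted p = 0.0345) and without replicate 2 of hypoxia (-0.62, adjusted p = 0.0379).

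**Figure D2:**
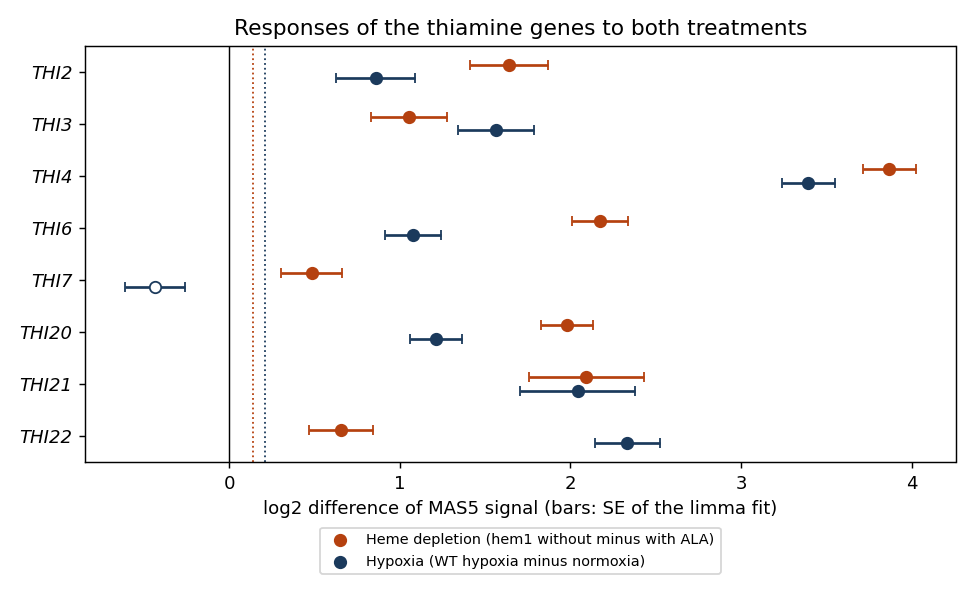
Log2 differences of the 8 thiamine genes for heme depletion (hem1 without minus with ALA) and hypoxia (wild type hypoxia minus normoxia). Bars are the SE of the limma fit, filled points passed at an adjusted p of 0.05, the open point did not, and dotted lines are the medians over all probe sets tested, 0.14 and 0.21. THI4 lies furthest to the right in both, and THI7 in hypoxia is the only point left of 0.

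In both treatments the groups compared did not overlap for any of the 8 genes, which was also so for 77.1% of all probe sets in heme depletion and 79.2% in hypoxia. For 5 of 8 genes (THI2, THI4, THI6, THI7 and THI20) both arrays without ALA lay above all 6 others, a pattern found in 19.5% of probe sets. For THI22 both hypoxia arrays lay above all others, as in 11.2% of probe sets. No THI gene had both normoxia arrays or both arrays with ALA on top, as 13.6% and 10.2% of probe sets did. Called rises in both treatments were found for 7 of 8 genes and for 21.4% of all probe sets. These treatments share no arrays. Without the arrays of high 18S signal 6 of 8 genes rose without ALA, where 21.6% of probe sets rose. In hypoxia, without the same arrays, 6 of 8 rose and THI7 fell, where 24.3% rose and 17.6% fell. RNA quality was read from the ACT1 control probe sets, as the signal at the 3′ end over that at the 5′ end. That ratio was 1.40 and 1.49 in normoxia and 2.11 and 2.18 in hypoxia, and it was 1.86 and 1.57 with ALA and 1.81 and 1.77 without it. Its part in the hypoxia results was not tested.

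**Figure D3:**
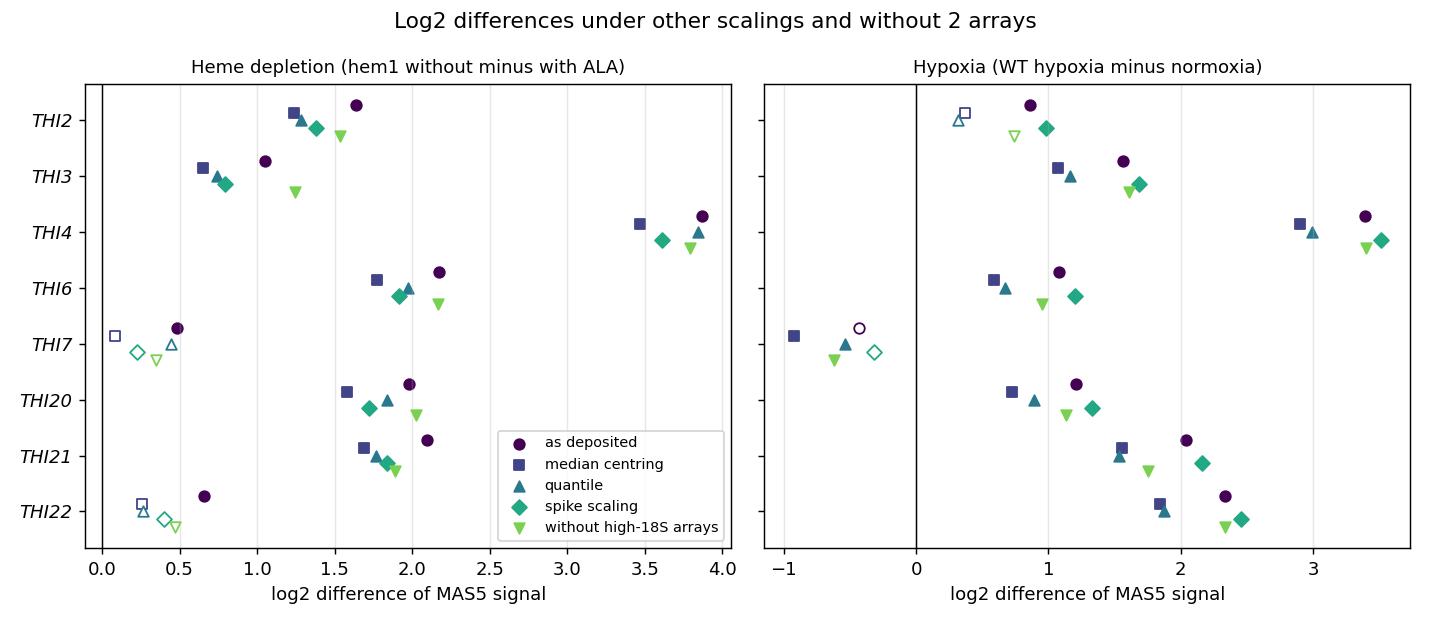
Log2 differences of the 8 genes as deposited, after 3 other scalings of the arrays, and without the 2 arrays of high 18S signal. Filled symbols passed at an adjusted p of 0.05 and open ones did not. THI3, THI4, THI6, THI20 and THI21 are filled throughout in both panels, whereas THI7 and THI22 in heme depletion and THI2 and THI7 in hypoxia are filled in some settings only.

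The responses were compared in a test of the difference between them, in which strain and culture time are confounded with treatment. It called 4 of 8 genes, 3 higher and 1 lower, where 17.8% of all probe sets were called, 8.46% higher and 9.29% lower. THI22 rose by more in hypoxia, with a difference of -1.68 (SE 0.27, adjusted p = 0.00617) between its log2 responses, a call that held in all 16 other settings. Its 2 responses start from unlike levels. The log2 difference of ALA-fed hem1 from normoxia was 0.90, and that of the cultures without ALA from hypoxia was -0.78. THI6 rose by more without ALA (1.10, SE 0.23, adjusted p = 0.0156), as did THI20 (0.77, SE 0.21, adjusted p = 0.0419). For THI7 the difference was 0.92 (SE 0.25, adjusted p = 0.0384). Over 16 other settings the THI6 call ended in 4, that of THI7 in 9 and that of THI20 in 11. With spike scaling these 3 calls ended (adjusted p = 0.146 for THI6, 0.399 for THI20 and 0.288 for THI7). They also ended without the arrays of high 18S signal, which leaves 1 array in hypoxia and 1 without ALA. The differences were no smaller there, at 1.22 for THI6, 0.89 for THI20 and 0.96 for THI7. The 1 gene still called in either setting, THI22, stands beside 15.5% and 6.6% of probe sets called. With a prior without trend 2 genes were called, where 15.3% of probe sets were. Leaving out any single array lowered the number called. The differences then ran from 0.97 to 1.22 for THI6, 0.74 to 1.10 for THI7, 0.69 to 0.85 for THI20 and -1.86 to -1.49 for THI22. Shares of all probe sets called are not given for these fits, which leave 1 array in a group. A general loss of calls therefore cannot be told apart there. For THI4 the difference was 0.48 (SE 0.22, adjusted p = 0.171), and it passed with quantile normalization (0.85, adjusted p = 0.0315). THI2 (0.78, SE 0.32, adjusted p = 0.133), THI3 (-0.51, SE 0.32, adjusted p = 0.294) and THI21 (0.05, SE 0.47, adjusted p = 0.951) did not pass.

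Levels were also compared across strains. The control cultures differ in strain, culture time and ALA, which cannot be told apart. They also differed in DAN1, ANB1 and CYC1, as given above, and a difference in heme was not tested. In the control cultures 2 of 8 genes, THI4 and THI22, were called higher in ALA-fed hem1 than in normoxia and none was lower, where 13.8% of probe sets were called higher and 7.92% lower. The groups did not overlap for 6 of 8 genes, as for 63.9% of probe sets. With quantile normalization only THI4 was called, where 17.4% of probe sets were. In the treated cultures 5 of 8 were higher without ALA than in hypoxia and THI22 was lower, where 8.46% were called higher and 6.55% lower. Here too 6 of 8 genes did not overlap, as for 61.1% of probe sets. Besides THI4, those higher were THI6 at 2.39-fold (adjusted p = 0.00252), THI2 at 2.25-fold (0.0127), THI20 at 1.74-fold (0.0113) and THI7 at 1.62-fold (0.0328), while THI22 was 1.71-fold lower (0.0294). Without the arrays of high 18S signal only THI4 (adjusted p = 0.0351) and THI6 (0.0401) were still called, where 3.74% of probe sets were. THI22 also lost its call with spike scaling (0.0859). Over 17 other settings the THI22 call ended in 5, and those of THI2 and THI20 ended in 3 each. Fits with single arrays left out were among these for all of them. The THI7 call ended in 10 of 17 other settings, among them median centring (log2 difference 0.56, adjusted p = 0.0723), spike scaling (0.0843), no trend (0.0516) and the fit on 2 groups only (0.0618). It ended too without replicate 1 of hypoxia (0.185), without either array with ALA (0.0557 and 0.0556) and without either array without ALA (0.140 and 0.0542). Fewer THI genes were also called without replicate 1 of hypoxia or without replicate 2 of the cultures without ALA. Shares of all probe sets called are not given there, so a general loss of calls cannot be told apart.

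The profiles over the 8 arrays were compared by the root-mean-square difference of log2 signals, each gene centred on its own mean. The arrays fall into 4 groups with shared treatments, so likeness reflects those groups and is a description. Among the 8 genes THI6 and THI20 were closest, at 0.17, and THI20 was nearer to THI6 than any other gene tested. THI2 lay 0.23 from THI6 and 0.29 from THI20. THI4 lay at least 0.98 from each other member. The genes most like THI4 were PCK1, the gluconeogenic carboxykinase gene (0.21), SNZ1 (0.34), CSR2 (0.34), SNO1 (0.36) and ATG39 (0.39). SNZ1 and SNO1 encode enzymes of vitamin B6 synthesis, which yields the precursor of the thiamine pyrimidine. The genes most like THI20 were SIP5 (0.08), LST8 (0.10), YPL119C-A (0.10), VPS36 (0.11) and TRK2 (0.13). Nearest to THI22 were SPC25 (0.17), PMA2 (0.17), EFM6 (0.18), IZH2 (0.19) and SYT1 (0.21). For THI7 the nearest were SFH5 (0.06), CYC2 (0.10), MGR1 (0.11), YIH1 (0.12) and HST4 (0.12). After THI20, the genes nearest to THI6 were AAC1 (0.18), SKG3 (0.19), YLL053C (0.20) and TAX4 (0.20). THI2 was most like CWC21 (0.11), YLL053C (0.19), RFX1 (0.20), RTC4 (0.20) and MMT2 (0.21). Around THI3 lay GSH1 (0.13), STN1 (0.13), MCH4 (0.15), TSC11 (0.16) and PIP2 (0.17). Around THI21 lay YLL066W-B (0.19), TOG1 (0.21), ECM38 (0.21), MEC1 (0.22) and ATG38 (0.24).

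Other genes of thiamine metabolism were described as 3 lists. Of 10 genes of the pyrimidine and vitamin B6 branch, 8 had no probe set of their own and are not analysed here. The other 2, SNZ1 and SNO1, rose in both treatments. SNZ1 read 61.0 and 83.1 in normoxia against 951 and 1263 under hypoxia. In the hem1 strain the signals were 289.9 and 267 with ALA against 2752 and 2803 without ALA. It rose 9.98-fold without ALA (adjusted p = 1.1e-05) and 15.4-fold in hypoxia (adjusted p = 2.8e-06). SNO1, its neighbour in the same pathway, read 24.2 and 27.9 in normoxia against 345 and 472 under hypoxia. Its hem1 signals were 107 and 111 with ALA against 1232 and 1316 without ALA. It rose 11.7-fold without ALA (adjusted p = 6.5e-06) and at least 14.03-fold in hypoxia (adjusted p = 2.3e-06), a bound because both normoxia arrays lay below their 30th percentile. Both genes had the order of levels seen for THI4, with no overlap between groups.

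Of 9 genes for transport, salvage, activation and regulation, NRT1, a THI7 relative, was below the 30th percentile on all 8 arrays and was not tested. Of the 8 tested, 3 rose and 1 fell without ALA, and 6 rose and 1 fell in hypoxia. Over all probe sets 30.2% rose and 19.7% fell without ALA, near the shares in this list, and 33.3% rose and 22.5% fell in hypoxia. The hypoxia count was 3 and 1 with median centring or without the arrays of high 18S signal, and 2 and 2 with quantile normalization, where 23.6% of probe sets rose and 30.2% fell. PHO3, which encodes a thiamine-repressible acid phosphatase known to depend on Thi2, was the one that fell. It read 3883 and 3312 in normoxia against 703 and 411 under hypoxia. The hem1 arrays gave 3939 and 3453 with ALA against 791 and 721 without ALA. Both treated groups lay far below both controls, with falls of 4.88-fold without ALA (adjusted p = 0.000182) and 6.67-fold in hypoxia (adjusted p = 4.7e-05) that held in all 17 other settings.

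PET18, a thiamine-regulated gene, read 46.2 and 64.7 in normoxia against 88.5 and 87.4 under hypoxia. In the hem1 strain the signals were 65.8 and 52.5 with ALA against 231 and 259 without ALA. It rose 4.16-fold without ALA (adjusted p = 0.000264). Its 1.61-fold rise in hypoxia (adjusted p = 0.0359) was lost with median centring (0.480), with quantile normalization (0.606) and without replicate 1 of normoxia (0.191), replicate 1 of hypoxia (0.121), replicate 2 of hypoxia (0.112) or either array without ALA (0.0501 and 0.0507). THI73, a putative transporter gene, rose 5.98-fold without ALA (adjusted p = 0.000905) and at least 1.89-fold in hypoxia (adjusted p = 0.0265). The latter call ended with median centring (0.124), with quantile normalization (0.152), without replicate 1 of normoxia (0.145) and without replicate 2 of hypoxia (0.162). THI72, another THI7 relative, rose 2.46-fold without ALA (adjusted p = 0.00303) and 6.43-fold in hypoxia (adjusted p = 5.5e-05). The names of its probe sets end in _i_at and _f_at, so they may not read THI72 alone. The dimmer one went from 29.3 and 49.1 in normoxia to 112.6 and 98.4 in hypoxia, and from 42.6 and 78 with ALA to 89.4 and 80.4 without it. With the mean of both probe sets the log2 differences were 0.93 without ALA (adjusted p = 0.0222) and 2.08 in hypoxia (adjusted p = 0.000361).

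THI74 and TPC1, the latter for the mitochondrial carrier of thiamin diphosphate, rose in hypoxia, at least 2.48-fold (adjusted p = 0.00426) and at least 2.57-fold (adjusted p = 0.0042; 0.0518 with quantile normalization). Without ALA neither passed (adjusted p = 0.975 and 0.731). Their levels with ALA lay above normoxia. THI74 read 34.4 and 18.5 in normoxia, 88.4 and 74.6 in hypoxia and 78.6 and 64.1 with ALA. TPC1 read 50.7 and 30.3, 104.7 and 99.3, and 82.5 and 87.6 in the same groups. Both were called higher with ALA than in normoxia (adjusted p = 0.0211 and 0.0288). Those calls ended in 6 and 9 of 17 other settings. PDC2, the regulator that acts with Thi2 and Thi3, read 276 and 215 in normoxia against 369 and 461 under hypoxia. Its hem1 signals were 336 and 444 with ALA against 392 and 448 without ALA. Its 1.69-fold rise in hypoxia (adjusted p = 0.0167) was lost with median centring (0.313), quantile normalization (0.119), without replicate 2 of normoxia (0.0915) and without replicate 2 of hypoxia (0.109). It did not pass without ALA (adjusted p = 0.681). THI80, for the kinase that makes thiamin diphosphate, read 53.6 to 84.9 over all 8 arrays and passed in neither treatment, with log2 differences of -0.02 (SE 0.27, adjusted p = 0.963) without ALA and -0.22 (SE 0.27, adjusted p = 0.509) in hypoxia. In hypoxia it passed as a fall with quantile normalization (-0.75, adjusted p = 0.0404).

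**Figure D4:**
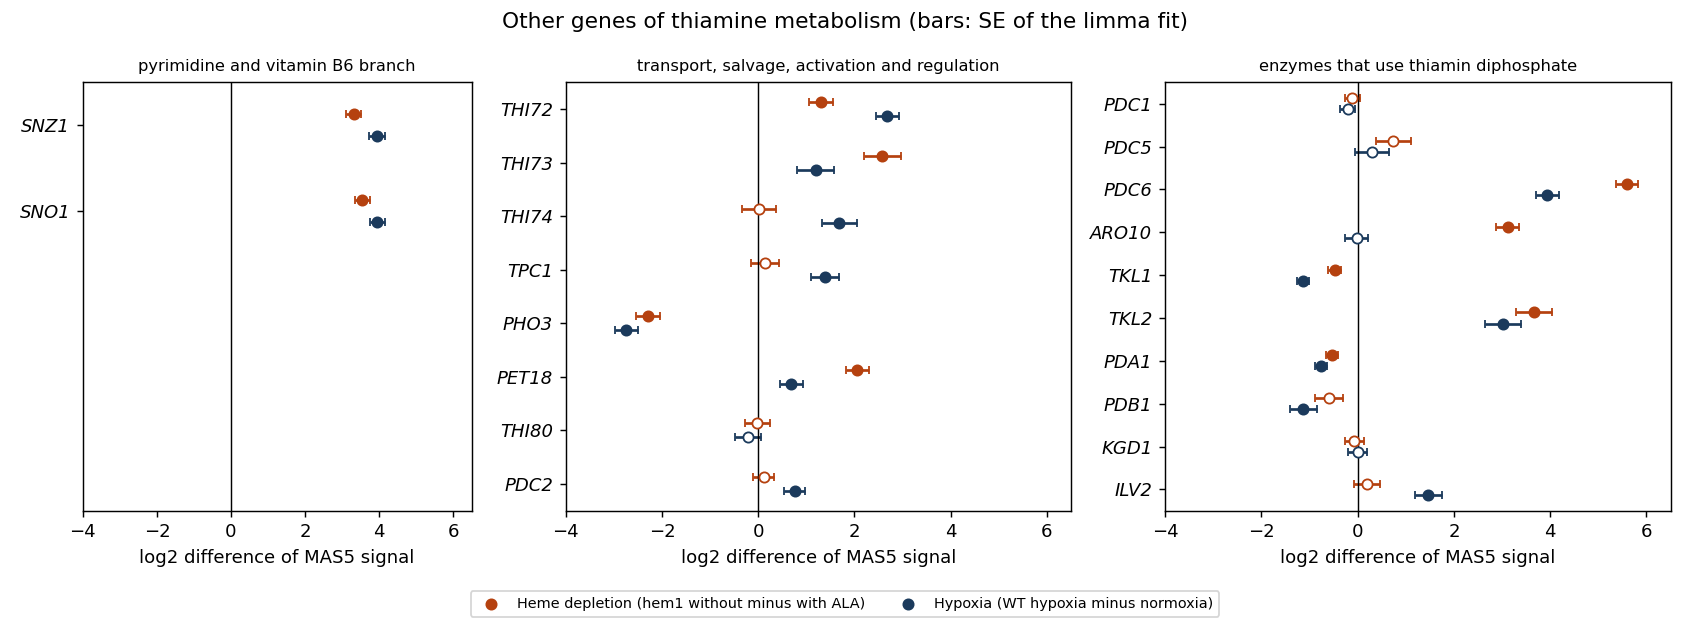
Log2 differences of the other genes of thiamine metabolism in heme depletion and hypoxia, in 3 lists. Bars are the SE of the limma fit, filled points passed at an adjusted p of 0.05 and open points did not. SNZ1 and SNO1 rose in both treatments, PHO3 fell in both, and THI80 passed in neither on the deposited scale shown.

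Of 10 genes for enzymes that use thiamin diphosphate, 3 rose and 2 fell without ALA, and 3 rose and 3 fell in hypoxia. Over all probe sets 30.2% rose and 19.7% fell without ALA, and 33.3% and 22.5% in hypoxia, so these shares were near the background. With median centring 3 rose and 4 fell in each, where 19.8% of probe sets rose and 34% fell without ALA, and 20% and 37% in hypoxia. Their median log2 difference was 0.06 without ALA and -0.01 in hypoxia, against 0.14 and 0.21 over all probe sets. PDC1, the main pyruvate decarboxylase gene, read 6772 to 8939 over all 8 arrays. It did not pass in heme depletion (log2 difference -0.11, SE 0.16, adjusted p = 0.575) or hypoxia (-0.21, SE 0.16, adjusted p = 0.279), and after median centring it was called lower in both (adjusted p = 0.022 and 0.00491). PDC5, a decarboxylase gene known to be induced when thiamine is short, passed in neither (adjusted p = 0.120 and 0.507). It passed as a rise without ALA once either normoxia array was left out of the shared fit (0.0322 and 0.0326), and in hypoxia without replicate 2 of normoxia (0.0400). PDC6, the minor decarboxylase gene, read 9.1 and 8.6 in normoxia against 126 and 147 under hypoxia. The hem1 arrays gave 20.1 and 16.6 with ALA against 975 and 797 without ALA. Its controls were dim, so its rises are bounds, of at least 24.3-fold without ALA (adjusted p = 1.7e-06) and at least 4.74-fold in hypoxia (adjusted p = 5.9e-06).

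The transketolase genes moved apart. TKL2, the minor form, rose 12.6-fold without ALA (adjusted p = 0.000145) and 8.08-fold in hypoxia (adjusted p = 0.00026), and all 3 of its probe sets were higher in both treatments. TKL1, the major form, fell 1.39-fold without ALA (adjusted p = 0.0154, but 0.076 without replicate 2 with ALA and 0.0666 without replicate 2 of the cultures without ALA) and 2.21-fold in hypoxia (adjusted p = 0.000171). PDA1, for a subunit of pyruvate dehydrogenase, fell 1.45-fold (adjusted p = 0.00824) and 1.69-fold (adjusted p = 0.00128). PDB1, for another subunit, fell 2.18-fold in hypoxia (adjusted p = 0.00959, but 0.0599 without replicate 2 of hypoxia). Without ALA it did not pass (adjusted p = 0.113), although it did as a fall without either normoxia array (0.0259 and 0.0255) and with median centring (0.0247). ARO10, a phenylpyruvate decarboxylase gene, rose at least 6.41-fold without ALA (adjusted p = 3.2e-05), from a dim 32.3 and 22.3, and did not pass in hypoxia (adjusted p = 0.946). ILV2, the acetolactate synthase gene, rose 2.77-fold in hypoxia (adjusted p = 0.0023) and did not pass without ALA (adjusted p = 0.577). KGD1, for a subunit of oxoglutarate dehydrogenase, passed in neither treatment (adjusted p = 0.788 and 0.990). It was lower with ALA, at 876 and 777, than in normoxia, at 1625 and 1586 (log2 difference -0.96, adjusted p = 0.0101). Without ALA it read 938 and 659, against 1528 and 1677 in hypoxia (-1.03, adjusted p = 0.0105). Each of these calls ended in 2 of 17 other settings. Strain and culture time differ in both comparisons.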

How the data were processed

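Each sample was hybridised to 1 Affymetrix yeast array. Per the submitters' processing notes the authors used MAS5 (version: not given in the sources used here). Their deposited table holds an intensity for every probe set and is not on a log scale. In the values, the mean after removal of 2% of probe sets at each end lies near 500.5 on every array. Of 9335 probe sets 60 were controls. The platform annotation gave 1 gene to 6504 of the rest, several to 328 and none to 2443, and all 6504 matched the RefSeq gene table by gene ID. Probe sets above the 30th percentile of their array on at least 2 of 8 arrays were tested (7081 probe sets, 5284 genes), each gene by its probe set of highest mean. The fit was made on log2 values in limma 3.58.1 (R 4.3.3) and had 1 mean per group, 4 residual and 4.36 prior degrees of freedom and an intensity trend. The precision is limited by the 2 arrays per group. On simulated data for heme depletion with 7081 probe sets, the fit recovered 36% of changes of 1 log2 unit and 79% of changes of 2. Far fewer probe sets were changed there than the 49.9% called in the data, which makes the cut-off on adjusted p stricter. These shares therefore do not give the power of the tests described above. A group below the percentile on at least 1 of its arrays gives a fold as "at least", against the higher of percentile and signal. The members and lists were chosen with earlier results of these data known. All 8 members are named whatever their values, other list genes when they passed in a contrast, with PDC2 and THI80, and for likeness the 5 nearest genes of members described in full. PDC1, PDC5 and KGD1, which passed in neither treatment, were named after their values were seen. Among them only KGD1 passed in the comparisons across strains. Alternatives were 3 other scalings, other filters and priors, single arrays left out, and both arrays of high 18S signal left out. For the THI genes other filters and priors leave a log2 difference unchanged, as does a left-out array outside the comparison. Such settings can change only the p-value, so the settings are not independent checks. For the other lists, the alternatives for single genes, and those for counts beyond median centring and quantile normalization, were chosen after seeing the data. No sequences are given, and no build is named for the array.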

Additional observations from a re-analysis of the deposited data

Results flagged for a closer look

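The results below differed between the treatments in the test of the difference between responses, with adjusted p-values from limma over 7081 probe sets. Each value is the log2 difference in heme depletion minus that in hypoxia, and strain and culture time cannot be told apart from treatment in it. Among the THI genes the values were 1.10 for THI6, 0.92 for THI7, 0.77 for THI20 and -1.68 for THI22. Of these calls that of THI22 held in all 16 other settings. The THI20 call ended in 11 of 16, among them every fit with a single array left out. The THI7 call ended in 9 of 16 and the THI6 call in 4 of 16. The level of THI22 also differed between the control cultures (log2 difference 0.90).

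Among the other genes of thiamine metabolism the values were -1.38 for THI72 (adjusted p = 0.0292), 1.37 for PET18 (0.0269), 1.65 for PDC6 (0.0129), 3.14 for ARO10 (0.00125) and 0.66 for TKL1 (0.0407). ARO10 read 32.3 and 22.3 with ALA and 242 and 224 without it, while the wild type arrays lay between 105.5 and 132.3. In the control cultures it was at least 3.25-fold lower with ALA than in normoxia (adjusted p = 0.000822). Of these 5 calls that of ARO10 held in all 16 other settings, and the others ended in several. The calls of THI72, PET18, PDC6 and TKL1 ended without the arrays of high 18S signal, which leaves 1 array in hypoxia and 1 without ALA. With spike scaling PET18 (0.103), PDC6 (0.0524) and TKL1 (log2 difference 0.29, adjusted p = 0.547) did not pass, and TKL1 also failed with a prior without trend (0.0792). The THI72 call ended with the mean over its probe sets (-1.15, adjusted p = 0.0759). The TKL1 call ended without any single one of the 8 arrays (adjusted p from 0.071 to 0.108). The THI72 call ended without any one of the hypoxia or hem1 arrays (0.0618 to 0.0933). The PET18 call ended without replicate 2 of normoxia, either hypoxia array, replicate 2 with ALA or either array without ALA (0.0543 to 0.0862). The PDC6 call ended without replicate 1 of hypoxia (0.0623) or replicate 1 of the cultures without ALA (0.0596).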

How the results depend on the processing

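Over 5 contrasts and up to 17 other settings the number of THI genes called stayed within 1.5 times of the reported one for heme depletion (6 to 8) and hypoxia (6 to 7). For the difference of the responses, reported as 4, it was 1 with spike scaling, 2 with a prior without trend, 1 without the arrays of high 18S signal, and 1 to 3 with single arrays left out. For the control cultures, reported as 2, it was 1 with quantile normalization, 1 to 2 with single arrays left out, and 3 with spike scaling, where THI3 was also called higher with ALA (log2 difference 0.93, adjusted p = 0.0251). For the treated cultures, reported as 6, it was 2 without the arrays of high 18S signal and 2 to 6 with single arrays left out. Shares of all probe sets called are not given for single arrays left out, nor for spike scaling in the control cultures. Those counts therefore do not separate the THI genes from a general change in calls. No called difference changed sign. The hypoxia total of 7, all higher as reported, was 6 higher and 1 lower with median centring and with quantile normalization. There THI2 lost its call and THI7 became a called fall. Among differences of the THI genes that passed in neither setting, the sign changed in 15 cases. The mean over a gene's probe sets gave the same counts, each THI gene having 1. The fit on 2 groups only does not exist for the difference of the responses. No paired analysis was possible because replicate numbers follow sample order and pair nothing. With 2 arrays a group, changes of 1 log2 unit were often missed in simulation, where far fewer probe sets changed than were called in the data.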
